A study of Mus musculus with 9 samples.

Results

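Mammary tumours grown from the metastatic mouse line LM9 were compared with tumours grown from the non-metastatic line HR1, using read counts per gene from all 3 LM9 and all 3 HR1 tumours, 6 of the 9 tumours of the series. HR1 is the mammary cancer line LB-mHR1, made from a tumour of a mouse that expressed mutant PIK3CA from the CAG promoter, and LM9 is a single line grown out from a lung metastasis of HR1 cells that carried a doxycycline-inducible piggyBac transposon, so each group stands for 1 line and clonal differences enter every comparison. For both groups 250000 cells in Matrigel and PBS were placed in a mammary fat pad of female NOD/SCID mice (NOD.CB17-Prkcd<scid>/J) aged 4 to 8 weeks, the tumours were resected, and GFP+ cells were sorted from them before RNA was extracted for stranded mRNA sequencing. The labels do not say whether the tumours of a group grew in separate mice, so the p-values measure the spread between these samples, which may be partly technical. In RNA pooled from sorted cells, fewer cells of a type and less RNA per cell cannot be told apart.

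Nfib encodes a transcription factor of the nuclear factor I family, which binds pairs of the letters TTGGC and helps set cell fate in lung, brain and mammary epithelium. Ero1l, named ERO1A in human, encodes the endoplasmic reticulum oxidase that reoxidises protein disulphide isomerase, and it is a known target of the hypoxia-inducible factor HIF-1. Vegfa encodes the main growth factor of blood vessel endothelium and is induced by the same factor, while the interferon-stimulated genes described here are switched on when type I interferon binds its receptor.

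The tables listed 14108 genes, of which 14085 were matched to a symbol, with 32393958 to 46681945 counts per tumour. HR1_1 stood apart from the other tumours of its label. Of 10538 genes at 5 CPM (counts per 1000000 reads) or more, 23.7% and 25.7% lay at least 2-fold apart between HR1_1 and the other two HR1 tumours, against 7.77% between HR1_2 and HR1_3 and 0.911% to 1.18% between LM9 tumours. HR1_1 was no closer to LM9, from which it lay at least 2-fold apart in 32.6% to 36.4% of genes, against 23.8% to 29.6% for HR1_2 and HR1_3. Some genes used as markers of other cells differed between the groups despite the sort, and which cells their reads came from was not tested. Of 15 leukocyte markers 10 were lower in LM9 and 0 higher, with summed levels of 279 to 1254 CPM in HR1 and 214 to 267 CPM in LM9. Of 11 fibroblast markers 9 were lower and 0 higher, with 1655 to 21640 CPM in HR1 and 501 to 641 CPM in LM9. None of these 26 markers was at or under 3 counts in all LM9 tumours. Of 10 endothelial markers 2 were higher and 3 lower, of 3 erythroid markers 3 were lower, of 3 muscle and 2 adipocyte markers 1 each was lower, and of 7 keratin and adhesion markers of mammary epithelium 1 was lower. Over all genes 20.4% were higher and 21.9% lower, and the endothelial counts lay near those shares. The epithelial markers summed to only 7.68 to 121 CPM in HR1 and 14.5 to 18.4 CPM in LM9, mostly from Krt14 except in HR1_1, so markers of the breast epithelium named in the labels had few reads; Krt8 and Krt7 were not analysed here.

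Expression differed widely between the lines. At an adjusted p under 0.05 in edgeR's quasi-likelihood F-test, adjusted after Benjamini and Hochberg over all genes and used for every adjusted p given here, 2878 of 14086 tested genes were higher in LM9 (20.4%) and 3080 were lower (21.9%), and 3606 of these 5958 differed at least 2-fold. All 3 LM9 tumours lay above all 3 HR1 tumours for 3939 genes (28.0%) and below all of them for 3562 genes (25.3%). The median log2 difference over all genes was -0.05. Without HR1_1, 3941 of 14107 genes were higher (27.9%) and 3921 lower (27.8%). Of the genes called with all tumours, 5743 were called in the same direction without HR1_1 and 0 in the opposite direction, 215 were called only with it and 2119 only without it. The counts also rested on the LM9 tumours: without LM9_1 the number called was 3768, and the number lower was 1820, 1985 and 1950 without LM9_1, LM9_2 and LM9_3.

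The series asks about NFIB in metastatic colonization, and on Nfib itself HR1_1 went against the other tumours of its label. Nfib (chromosome 4, 82290173 to 82506751, mm10) stood at 1343, 23.9 and 18.3 CPM in HR1_1, HR1_2 and HR1_3 and at 532, 583 and 421 CPM in LM9_1, LM9_2 and LM9_3. HR1_1 exceeded every LM9 tumour, while HR1_2 and HR1_3 lay far under them. Over all 6 tumours the log2 difference was 0.15 ± 1.29 (SE, n = 3 and 3, adjusted p = 0.935), and without HR1_1 it was 4.61 ± 0.24 (adjusted p = 7.99e-07). The value with HR1_1 depended on the method, since limma-voom gave 2.65 over the same tumours (adjusted p = 0.142). In the third group of the series, tumours of the metastatic line LM1, the mean was 719 ± 121 CPM (SD, n = 3).

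Ero1l was high in LM9 and low in all HR1 tumours. Ero1l was measured at 37.2, 65.7 and 72.3 CPM in the HR1 tumours and at 896.5, 1232 and 806 CPM in the LM9 tumours, a log2 difference of 4.07 ± 0.29 (adjusted p = 4.70e-05). The groups did not overlap, the exact two-sided permutation p was 0.1, the smallest that 3 against 3 allows, and without HR1_1 the difference was 3.83. The LM1 tumours had a mean Ero1l level of 124 ± 11.7 CPM (SD, n = 3), under every LM9 tumour. In HR1_1, with the most Nfib reads of the 6 tumours, the Ero1l level was the lowest of the 6. Vegfa stood at 40.3, 127 and 126 CPM in HR1 and at 859, 655 and 552 CPM in LM9, again without overlap and again lowest in HR1_1, with a log2 difference of 2.82 ± 0.43 (adjusted p = 0.0015).

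The related factor Nfia, which shares the DNA-binding domain of Nfib, was also higher. Nfia was at 2.46, 0.743 and 0.232 CPM in HR1 and at 25.2, 21.0 and 17.8 CPM in LM9, and the log2 difference of 4.24 ± 0.71 passed the test (adjusted p = 0.0023). Without HR1_1 the difference of Nfia was 5.42. The forkhead repressor gene Foxp1 rose from 34.2, 48.2 and 53.7 CPM to 168, 146 and 124 CPM, with no overlap (log2 difference 1.68 ± 0.24, adjusted p = 0.000956). Of the 7 tested genes of the nuclear factor I family and the transposon screen these 2 were higher and 0 lower, beside 20.4% higher and 21.9% lower over all genes. Lrch3, another gene of the screen, showed a log2 difference of 0.05 ± 0.17 (adjusted p = 0.831), and without HR1_1 Nfib was called as well.

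**Figure D1:**
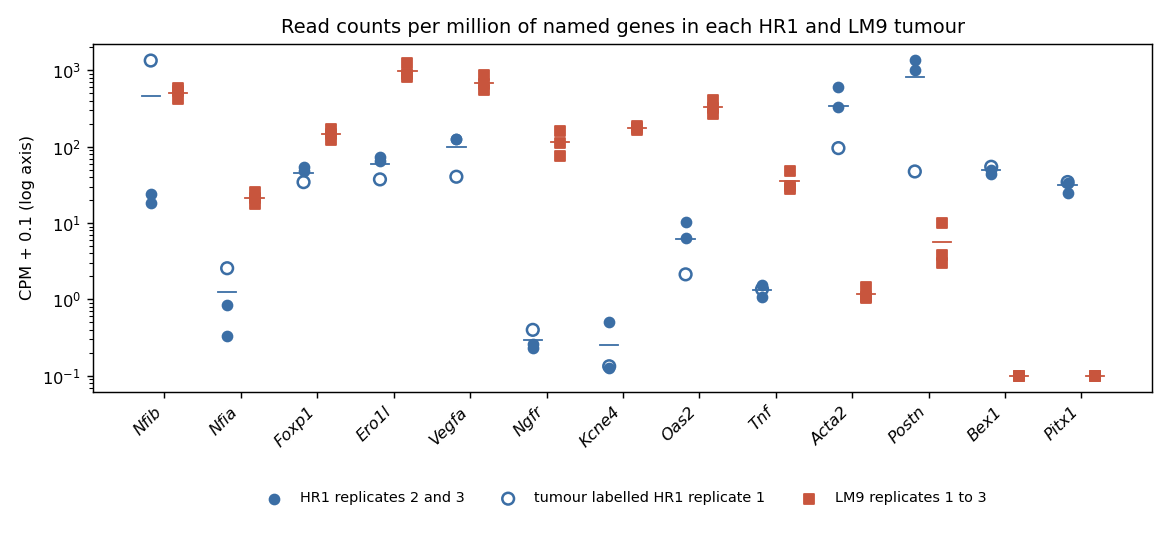
CPM + 0.1 on a log axis for 13 genes in each HR1 and LM9 tumour, with HR1_1 drawn as an open circle, every other tumour as a filled point and a line at each group's mean. For Nfib the open circle, at 1343 CPM, lies above all LM9 tumours, whereas for Ero1l and Vegfa it is the lowest point of the 6.

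HIF-1 binds the letters ACGTG in DNA, and genes of glucose uptake, glycolysis and vessel growth are its best known targets. Of 39 such genes, 24 were higher in LM9 and 1 was lower, with a median log2 difference of 1.11 (27 higher and 1 lower without HR1_1). Over all genes 20.4% were higher and 21.9% lower, or 27.9% and 27.8% without HR1_1, which is the background for each list of genes. Among 18 genes of glucose uptake and glycolysis 9 rose and 0 fell, with a median of 0.63. The glucose transporter gene Slc2a1 stood at 139, 243 and 449 CPM in HR1 and at 980, 1048 and 807 CPM in LM9 (log2 difference 1.77 ± 0.37, adjusted p = 0.00607). Hexokinase 2, which traps glucose in the cell, was at 22.3, 51.6 and 49.7 CPM against 216, 203 and 191 CPM (2.31 ± 0.36, adjusted p = 0.00156). Neither gene overlapped between the groups. Gapdh had fewer than 4 CPM in every tumour, and since its reads can be shared with near-identical processed copies its level is uncertain.

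Among 21 other HIF targets 15 were higher and 1 lower, with a median of 1.67. Ndrg1, a stress-responsive gene named for N-myc regulation, was the most abundant of those named, at 1170, 1487 and 1335 CPM in HR1 and at 9946, 10396 and 9093 CPM in LM9 (2.88 ± 0.17, adjusted p = 1.90e-05). Car9, the carbonic anhydrase that acidifies the surroundings of hypoxic cells, was at 44.5, 96.6 and 276 CPM against 625, 783 and 726 CPM (2.35 ± 0.57, adjusted p = 0.0113). For both genes every LM9 tumour exceeded every HR1 tumour, although Car9 spread widely within HR1. Lox, the lysyl oxidase that crosslinks collagen, was the one target that was lower (log2 difference -3.51, adjusted p = 0.011).

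The promoters of the HIF targets held the letters ACGTG, searched on both strands, more often than promoters at large. In windows from 250 bases before to 50 bases after the transcription start (RefSeq, GRCm38.p6), the letters were found in 19 of 35 HIF targets with a window (54.3%) and in 2814 of 11112 listed genes with one (25.3%). Among the targets that held them 10 of 19 were called higher, and among those that did not 12 of 16. Ero1l, Car9 and Hk2 are shown because they had the largest differences among targets called higher whose first copy lies before the start. The window of Vegfa did not hold the letters. The windows lie at chr14:45318581-45318680 (minus strand), chr4:43506963-43507025 (plus strand) and chr6:82774605-82774704 (minus strand), all end at or before the start and run in the direction of the gene, and the capitals mark ACGTG or its reverse complement CACGT. The first copy in each lies 63, 18 and 226 bases before the start:
Ero1l: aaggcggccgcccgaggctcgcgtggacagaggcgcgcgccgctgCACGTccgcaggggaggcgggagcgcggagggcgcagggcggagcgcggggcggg
Car9: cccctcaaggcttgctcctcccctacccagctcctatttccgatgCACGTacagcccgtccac
Hk2: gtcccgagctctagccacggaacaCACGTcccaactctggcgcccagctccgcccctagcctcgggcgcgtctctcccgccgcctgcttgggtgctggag

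The letters TTGGC, searched on both strands, occurred 1 time in the 300-base window of Ero1l, and 50.8% of all windows held it. Such matches describe letters and not bound sites.

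Genes of the endoplasmic reticulum stress response moved in both directions. Of 28 genes 8 were higher and 5 lower, with a median of -0.14 (9 and 5 without HR1_1), while 20.4% and 21.9% of all genes did so. Among 16 chaperones and oxidoreductases 2 rose and 3 fell, and among 12 sensors, factors and degradation genes 6 rose and 2 fell. Ern1, which encodes the stress sensor IRE1, was at 6.08, 11.2 and 14.7 CPM in HR1 and at 77.2, 59.0 and 56.8 CPM in LM9 (2.59 ± 0.34, adjusted p = 0.000735). Ddit3, which encodes the stress-induced factor CHOP, was at 74.5, 142 and 81.6 CPM against 461, 427 and 413 CPM (2.13 ± 0.24, adjusted p = 0.000384). Xbp1, whose mRNA is spliced by IRE1, was lower in LM9, at 400, 177 and 164 CPM in HR1 and 86.6, 83.0 and 98.2 CPM in LM9 (-1.47 ± 0.32, adjusted p = 0.00703). Of 23 genes of amino acid synthesis and other ATF4 targets 8 rose and 1 fell (12 and 1 without HR1_1), with a median of 0.69. Phgdh, the first enzyme of serine synthesis, was among those higher (log2 difference 1.19).

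Interferon-stimulated genes were higher in LM9 with 1 exception. Of 32 genes 31 were higher in LM9 and 1 was lower, with a median log2 difference of 3.54, and the same counts were obtained without HR1_1. Oas2, an enzyme that senses double-stranded RNA and activates RNase L, stood at 2.03, 6.19 and 10.2 CPM in HR1 and at 404, 267 and 320 CPM in LM9 (5.74 ± 0.55, adjusted p = 0.000178). Irf7, the factor that amplifies interferon production, was at 206, 112 and 160 CPM against 1976, 1825 and 2191 CPM (3.65 ± 0.24, adjusted p = 3.38e-05). Isg15, a ubiquitin-like modifier, was at 275, 159 and 172 CPM against 1686, 1587 and 1949 CPM (3.11 ± 0.24, adjusted p = 6.01e-05). In each of these genes every LM9 tumour lay far above every HR1 tumour, and HR1_1 fell with its group. Ifnb1, which encodes interferon beta itself, was at 0.0665, 0.27 and 0.18 CPM in HR1 and at 21.2, 6.98 and 16.0 CPM in LM9 (6.35 ± 0.61, adjusted p = 0.000174). The exception, Ifi27, was lower (-1.19 ± 0.39, adjusted p = 0.0364), at 478, 146 and 228 CPM in HR1 and 102, 147 and 124 CPM in LM9, and it missed the threshold without LM9_1, LM9_2 or LM9_3 in turn (adjusted p = 0.12, 0.0635 and 0.0942). It also missed it with limma-voom (adjusted p = 0.0518), and without HR1_1 its edgeR difference was -0.59 (adjusted p = 0.0499). The leukocyte markers were lower over the same tumours, at 279 to 1254 CPM in HR1 and 214 to 267 CPM in LM9, and their part in the interferon values was not tested. The Oas, Ifit and Gbp genes are families of close copies whose reads may be split or shared, so their single values are uncertain.

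**Figure D2:**
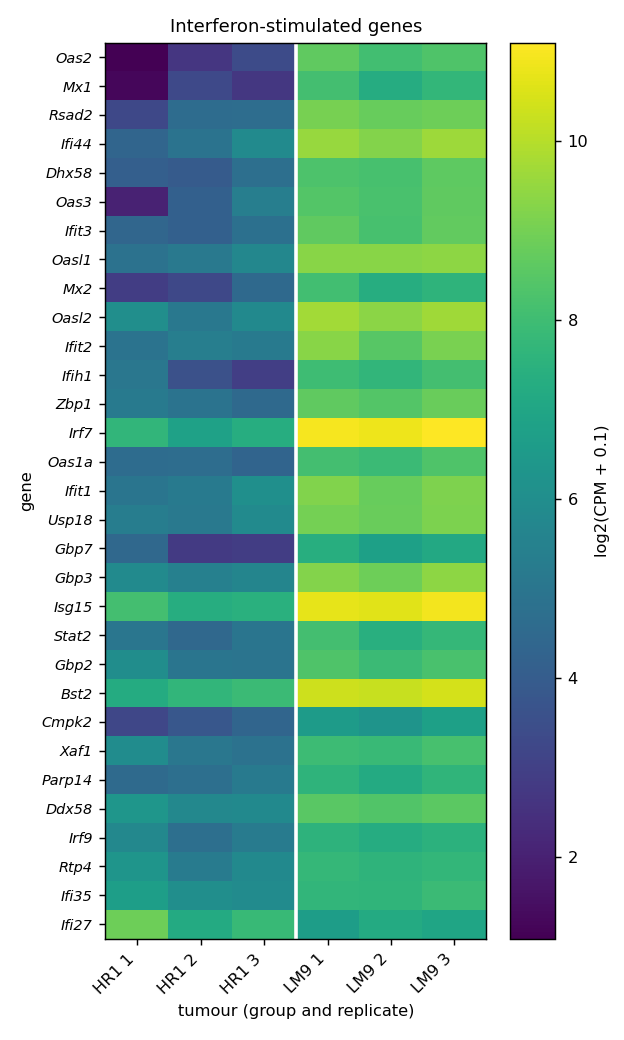
Heat map of log2(CPM + 0.1) for 31 of the 32 interferon-stimulated genes (rows) in the 3 HR1 and 3 LM9 tumours (columns). All rows but Ifi27 are brighter across the 3 LM9 columns, and the HR1_1 column sits with HR1_2 and HR1_3.

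The promoters of these genes held a repeated GAAA, the core of the element bound by interferon-regulated factors. A pair of GAAA with 2 bases between them, searched on both strands, lay in the 300-base window of 13 of 22 interferon-stimulated genes with a window (59.1%), of 5 of 16 genes of class I antigen presentation, and of 346 of 11112 listed genes (3.11%). The 13 genes with it had a median log2 difference of 3.51 and the 9 without it 3.65. The windows of 5 genes are shown as examples of 1 or 2 copies, and capitals mark each copy on either strand. The windows lie, in the order printed, at chr12:26456518-26456617 (minus strand), chr5:120777680-120777779 (minus), chr19:34583328-34583427 (plus), chr5:120907526-120907590 (minus) and chr19:34640740-34640839 (plus). Ifit3, Oas1a and Ifit1 hold 2 copies each, and those of Oas1a overlap:
Rsad2: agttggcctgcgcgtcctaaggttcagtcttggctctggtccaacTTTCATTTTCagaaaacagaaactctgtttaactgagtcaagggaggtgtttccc
Oas3: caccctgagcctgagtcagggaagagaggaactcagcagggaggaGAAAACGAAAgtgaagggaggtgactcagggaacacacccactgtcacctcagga
Ifit3: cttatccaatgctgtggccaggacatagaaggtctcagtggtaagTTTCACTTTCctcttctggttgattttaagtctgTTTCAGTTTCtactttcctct
Oas1a: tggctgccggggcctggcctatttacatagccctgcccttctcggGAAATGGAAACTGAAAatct
Ifit1: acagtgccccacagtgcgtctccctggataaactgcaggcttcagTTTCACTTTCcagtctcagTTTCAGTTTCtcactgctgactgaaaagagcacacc

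Genes of class I antigen presentation rose with them. Of 18 genes 17 were higher and 0 lower, with a median of 2.19 (18 and 0 without HR1_1). B2m, the light chain of every class I molecule, was at 1305, 1100.5 and 925 CPM in HR1 and at 5115, 4801 and 5633 CPM in LM9 (2.22 ± 0.18, adjusted p = 8.85e-05). The heavy chain gene H2-D1 was at 462, 219 and 368 CPM against 2397, 2102 and 2531 CPM (2.74 ± 0.26, adjusted p = 0.000169). Nlrc5, the activator of class I genes, was at 0.898, 1.04 and 0.36 CPM against 19.6, 7.32 and 9.95 CPM (4.0 ± 0.53, adjusted p = 0.000796). Tap1, which carries peptides into the endoplasmic reticulum, rose by a log2 difference of 2.14. None of these genes overlapped between the groups.

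Cytokine ligands were more often higher than lower. Of 48 cytokines, chemokines and receptors 19 rose and 7 fell (23 and 12 without HR1_1), and of the 28 ligands 15 rose and 3 fell, with a median of 1.68. The inflammatory cytokine gene Tnf stood at 1.26, 1.46 and 0.978 CPM in HR1 and at 30.2, 48.6 and 28.0 CPM in LM9 (4.84 ± 0.32, adjusted p = 3.38e-05). The neutrophil attractant gene Cxcl1 was at 14.0, 9.37 and 8.65 CPM against 303, 444 and 251 CPM (4.96 ± 0.40, adjusted p = 8.85e-05). Ccl5, which attracts T cells, was at 20.1, 7.32 and 6.05 CPM against 180, 241 and 267 CPM (4.37 ± 0.46, adjusted p = 0.000304). The groups stood far apart for all 3, while the macrophage complement gene C1qa ran the other way, at 170, 217 and 43.3 CPM in HR1 and 13.2, 6.73 and 11.8 CPM in LM9 (-3.76 ± 0.55, adjusted p = 0.0013). Cd68, another macrophage marker, was at 24.2, 122 and 41.2 CPM against 107, 135 and 138 CPM, with overlapping groups (1.03 ± 0.49, adjusted p = 0.122, and 0.047 with limma-voom). Il18r1, a subunit of the interleukin-18 receptor, was at 0.0333, 1.10 and 1.88 CPM against 122, 109 and 143 CPM (6.92 ± 0.80, adjusted p = 0.000454).

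Several of the highest increases were in genes with few or no reads in HR1. The neurotrophin receptor gene Ngfr (chromosome 11) was at 0.299, 0.158 and 0.129 CPM in HR1 and at 76.3, 159 and 111 CPM in LM9 (9.24 ± 0.41, adjusted p = 6.62e-06). Kcne4, an accessory subunit of potassium channels, was at 0.0333, 0.405 and 0.0257 CPM against 187, 163 and 174 CPM (9.98 ± 0.66, adjusted p = 3.53e-05). Lgi2, Homer2 and Fgf15 had at most 3 counts in each HR1 tumour, and against a floor of 3 counts per tumour they were at least 467-fold, 294-fold and 126-fold higher in LM9. The largest increases among genes at a mean of 5 CPM or more over the 6 tumours also included Ang2, Mmp24, Otop1, Igf2bp3 and Ccdc149, with log2 differences between 7.0 and 7.65. These genes were under 1 CPM in every HR1 tumour and reached that mean through LM9. In all, 140 genes called higher had at most 3 counts in every HR1 tumour.

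Some ligands of the epidermal growth factor receptor, chosen for their role after their values were seen, were higher in LM9. Areg was at 0.665, 3.38 and 5.94 CPM in HR1 and at 65.2, 79.3 and 74.2 CPM in LM9 (4.44 ± 0.64, adjusted p = 0.00115). Btc was at 1.13, 0.788 and 0.669 CPM against 16.5, 14.7 and 22.9 CPM (4.39 ± 0.35, adjusted p = 8.36e-05). Hbegf and Egfr had log2 differences of 2.49 and 1.53, and Tgfa, with at most 3 counts in each HR1 tumour, was at least 12.1-fold higher. Within the whole list of 36 growth factors and receptors 12 were higher and 9 lower (16 and 9 without HR1_1), with a median of 0.12, and of its 20 ligands 6 were higher and 7 lower, with a median of -0.43. With limma-voom 12 of the list were higher and 3 lower, and of the ligands 6 and 3, beside 20.4% higher and 21.9% lower over all genes. The lower members included Igf1 (-4.58), the insulin-like growth factor.

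Genes of mitosis differed and those of DNA replication mostly did not pass the test. Of 34 genes 19 were higher and 0 lower, with a median of 0.69 (20 and 0 without HR1_1), made up of 17 of 17 mitosis genes with a median of 1.33 and 2 of 17 replication genes with a median of 0.21. The proliferation marker gene Mki67 was at 17.7, 11.4 and 17.7 CPM in HR1 and at 125, 114 and 98.9 CPM in LM9 (2.85 ± 0.41, adjusted p = 0.00106). Top2a, the topoisomerase that untangles sister chromosomes, was at 86.0, 76.3 and 121 CPM against 369, 387 and 420 CPM (2.05 ± 0.20, adjusted p = 0.000203). Mcm5, a subunit of the replicative helicase, was at 73.5, 87.4 and 129 CPM against 103, 125 and 112 CPM (0.22 ± 0.21, adjusted p = 0.411), with overlapping groups. Of 23 p53 targets and cell-cycle inhibitors 6 rose and 5 fell (10 and 4 without HR1_1), with a median of 0.47, near the 20.4% and 21.9% over all genes, and Mdm2, which marks p53 for degradation, was among those higher (1.06).

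Subunits of the mitochondrial respiratory chain were lower. Of 32 subunit genes 0 rose and 19 fell, with a median of -0.59 (0 and 17 without HR1_1), and complexes I and II held 12 of their 16 members among them. Ndufa4 was at 243, 211 and 222 CPM in HR1 and at 67.2, 86.9 and 80.5 CPM in LM9 (-1.53 ± 0.16, adjusted p = 0.000234). All HR1 values of this gene lay above all LM9 values. The size of these changes was small beside those of the interferon genes, as the plot of differences by role shows.

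**Figure D3:**
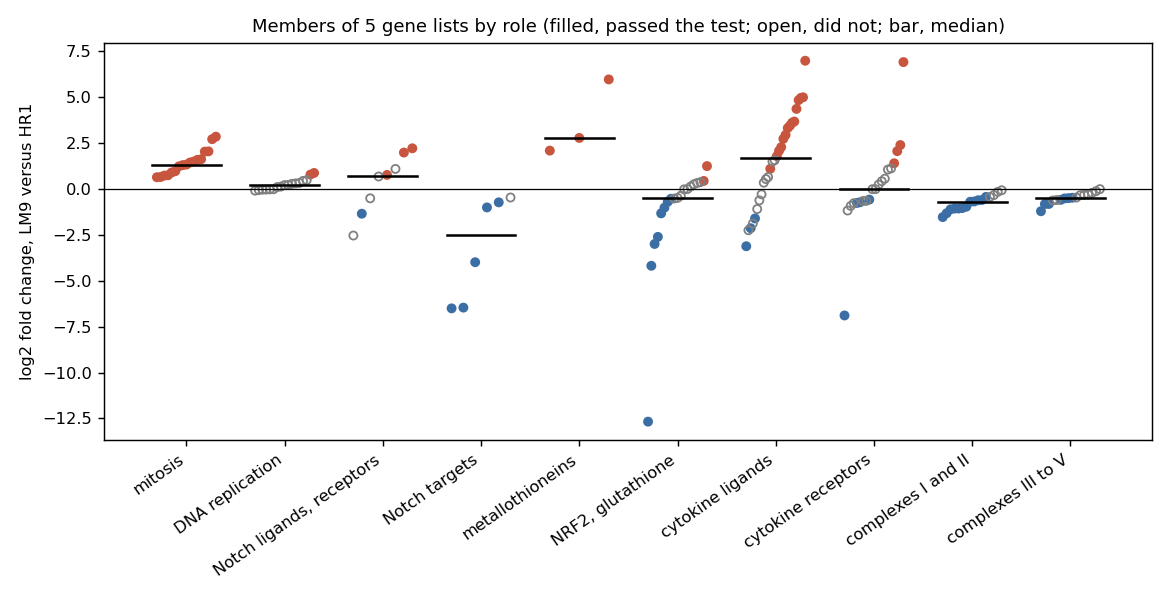
Log2 difference of LM9 minus HR1 for each member of 5 gene lists, split by role, with filled points for genes past the adjusted p threshold, open points for the others and a bar at the median. Mitosis genes are all filled and above 0 while most replication genes are open, and Gsta4, with 0 counts in every LM9 tumour, is drawn at its fitted value of -12.7, which is no bound.

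Contractile, matrix and protease genes included members that were nearly without reads in LM9. Acta2, the smooth muscle actin of myofibroblasts and myoepithelial cells, stood at 95.7, 606 and 327 CPM in HR1 and at 0.966, 0.938 and 1.37 CPM in LM9 (-8.29 ± 0.72, adjusted p = 0.000114). Postn, which encodes the matrix protein periostin, was at 47.3, 1374 and 1021 CPM against 9.96, 2.93 and 3.74 CPM (-7.20 ± 1.19, adjusted p = 0.00213). Both fell without overlap, with HR1_1 closest to LM9. Of 23 mesenchymal genes 7 fell and 5 rose (9 and 8 without HR1_1), beside 21.9% lower and 20.4% higher over all genes, and their median of 0.14 turned to -0.28 without HR1_1. The EMT factor genes Zeb1 and Zeb2 were among those higher, with log2 differences of 1.15 and 1.06.

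Of 24 collagen genes 12 fell and 3 rose, with a median of -0.58 (13 and 4 without HR1_1), beside 21.9% lower and 20.4% higher over all genes. With limma-voom 10 were lower and 3 higher. Col1a1, the most abundant of them, was at 12670, 7033 and 11022 CPM in HR1 and at 7742, 7477 and 7239 CPM in LM9. Its groups overlapped (-0.45 ± 0.23, adjusted p = 0.145). Col3a1, a fibrillar collagen of loose connective tissue, was at 3338, 12048 and 7920 CPM in HR1 and at 2306, 1300 and 1423 CPM in LM9 (-2.21 ± 0.43, adjusted p = 0.00446). Col1a2 was at 44.2, 1472 and 2725 CPM against 73.2, 40.5 and 57.0 CPM (-4.64 ± 1.12, adjusted p = 0.0112), and here HR1_1 lay among the LM9 tumours. Col11a1 had at most 3 counts in each LM9 tumour and was at least 325-fold lower. The fibroblast markers fell with the collagens. Decorin, encoded by Dcn, was at 17605, 432 and 329 CPM in HR1 and 76.8, 61.5 and 15.9 CPM in LM9, so HR1_1 was high for this fibroblast marker and low for Col1a2. The part of the fibroblast markers in the mesenchymal, collagen and protease values was not tested.

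Matrix proteases fell more often than they rose. Of 30 proteases and inhibitors 11 were lower and 3 higher, with a median of -0.77 (14 and 6 without HR1_1), and 10 of the 11 were proteases, while 21.9% of all genes were lower and 20.4% higher. The collagenase gene Mmp13 was at 34.9, 129 and 464 CPM in HR1 and at 0.537, 0.206 and 0.585 CPM in LM9 (-8.87 ± 1.09, adjusted p = 0.000587). The stromelysin gene Mmp3 was at 252, 575 and 73.4 CPM against 2.32, 1.24 and 0.563 CPM (-7.77 ± 0.93, adjusted p = 0.000527). Mmp10 was at 0 counts in all LM9 tumours and at least 89.9-fold lower. The inhibitor gene Slpi went up, from 15.4, 1.55 and 3.53 CPM to 124, 179 and 203 CPM (4.64 ± 0.76, adjusted p = 0.00211, and 6.06 without HR1_1).

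Some genes with many reads in HR1 had none or nearly none in LM9. Pitx1, a homeobox factor of the hind limb, was at 34.3, 33.8 and 24.9 CPM in HR1 and at 0 counts in all LM9 tumours, at least 464-fold lower. Bex1, a small adaptor gene on the X chromosome, was at 54.5, 49.2 and 43.8 CPM against 0 counts, at least 735-fold lower. Gdf6, a bone morphogenetic ligand, was at 47.5, 36.3 and 53.8 CPM in HR1 and was at least 686-fold lower. These 3 genes were even across the HR1 tumours, HR1_1 included. Brinp3, Prex2 and Gsta4 were at least 2306-fold, 378-fold and 290-fold lower.

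Other losses were uneven within HR1. Hoxb13 was at 230, 9.59 and 16.3 CPM in HR1 and at 0 counts in LM9, at least 1275-fold lower with HR1_1 and at least 194-fold lower without it. Crym, a thyroid hormone binding protein, was at 303, 0.0901 and 0.0772 CPM against 0 counts, so its bound of at least 1510-fold came from HR1_1 and without that tumour was 1.25-fold. Cxcl15 also leaned on HR1_1, with a bound of 460-fold that became 120-fold without it. In all, 173 genes called lower had at most 3 counts in every LM9 tumour.

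Of 31 homeobox genes 11 fell and 6 rose, with a median of -0.32 (13 and 6 without HR1_1), and of 15 HOX genes 6 fell and 2 rose, beside 21.9% lower and 20.4% higher over all genes. Hoxc6 stood at 26.2, 13.5 and 10.1 CPM in HR1 and at 0.451, 0.298 and 0.135 CPM in LM9 (-5.80 ± 0.54, adjusted p = 0.000148). Of 26 epithelial genes 6 fell and 3 rose (8 and 8 without HR1_1), with a median of -0.75. With limma-voom the order of these counts turned, to 4 lower and 6 higher. Trp63, the factor of basal epithelium, was at 7.85, 13 and 12.4 CPM against 0.515, 0.641 and 0.923 CPM (-3.99 ± 0.35, adjusted p = 0.000115). Of the endothelial genes, Cdh5, the endothelial cadherin, was at 3.23, 13.4 and 1.88 CPM in HR1 and at 232, 254 and 228 CPM in LM9 (5.26 ± 0.70, adjusted p = 0.000819). Kdr, the receptor of VEGF-A, rose by 4.84 on the log2 scale, while Pecam1 had a difference of -2.64 that missed the threshold without LM9_2 or LM9_3 (adjusted p = 0.0542 and 0.0547).

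Notch target genes fell in LM9. Of 14 genes 6 were lower and 3 higher, with a median of -0.62 (7 and 4 without HR1_1), where all genes had 21.9% lower and 20.4% higher, and 5 of the 6 targets fell. Of the 8 ligands and receptors 3 were higher, 1 was lower and 4 did not pass the test. Hey1, a repressor switched on by Notch, was at 5.32, 2.32 and 6.90 CPM in HR1 and at most 3 counts in each LM9 tumour, at least 72.5-fold lower. Notch1 was at 31.8, 22.0 and 25.4 CPM against 95.0, 123 and 95.9 CPM (1.99 ± 0.22, adjusted p = 0.000342). Of 35 Wnt genes 11 fell and 5 rose, with a median of -0.26, beside the same shares over all genes, and without HR1_1 the counts were 12 and 13 beside 27.8% and 27.9%. Wif1, a secreted Wnt inhibitor, was at 6681, 855 and 958 CPM in HR1 and at 82.0, 77.0 and 24.9 CPM in LM9 (-5.53 ± 0.93, adjusted p = 0.00231), with HR1_1 far above the other HR1 tumours. Its difference without HR1_1 was -3.88. Notum, which strips the lipid from Wnt proteins, was at 1509, 253 and 312 CPM against 542, 457 and 446 CPM and turned from -0.52 (adjusted p = 0.498) to 0.77 (adjusted p = 0.00131) without HR1_1.

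Further lists had medians from -0.25 to 0.08, and over all genes 21.9% were lower and 20.4% higher. Of 37 genes of TGF-beta and BMP signalling 9 fell and 6 rose, with a median of -0.25 (12 and 10 without HR1_1), near those shares. Of 36 axon guidance genes 11 fell and 2 rose, with a median of -0.10 (14 and 7), and the repulsive ligand gene Sema3a had the lowest value, -7.64. Of 26 cholesterol genes 6 rose and 3 fell, with a median of 0.08 (7 and 6), and the share that rose was near that over all genes. Of 22 genes of glutathione use, NRF2 targets and metallothioneins 8 fell and 5 rose, with a median of -0.19 (8 and 7). The quinone reductase gene Nqo1 was at 103, 142 and 127 CPM in HR1 and at 16.0, 24.0 and 21.0 CPM in LM9 (-2.61 ± 0.20, adjusted p = 6.17e-05). The metallothionein gene Mt2 moved the other way, from 93.6, 96.8 and 74.1 CPM to 647, 685 and 489 CPM (2.78 ± 0.19, adjusted p = 3.95e-05), and all 3 metallothionein genes were higher.

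**Figure D4:**
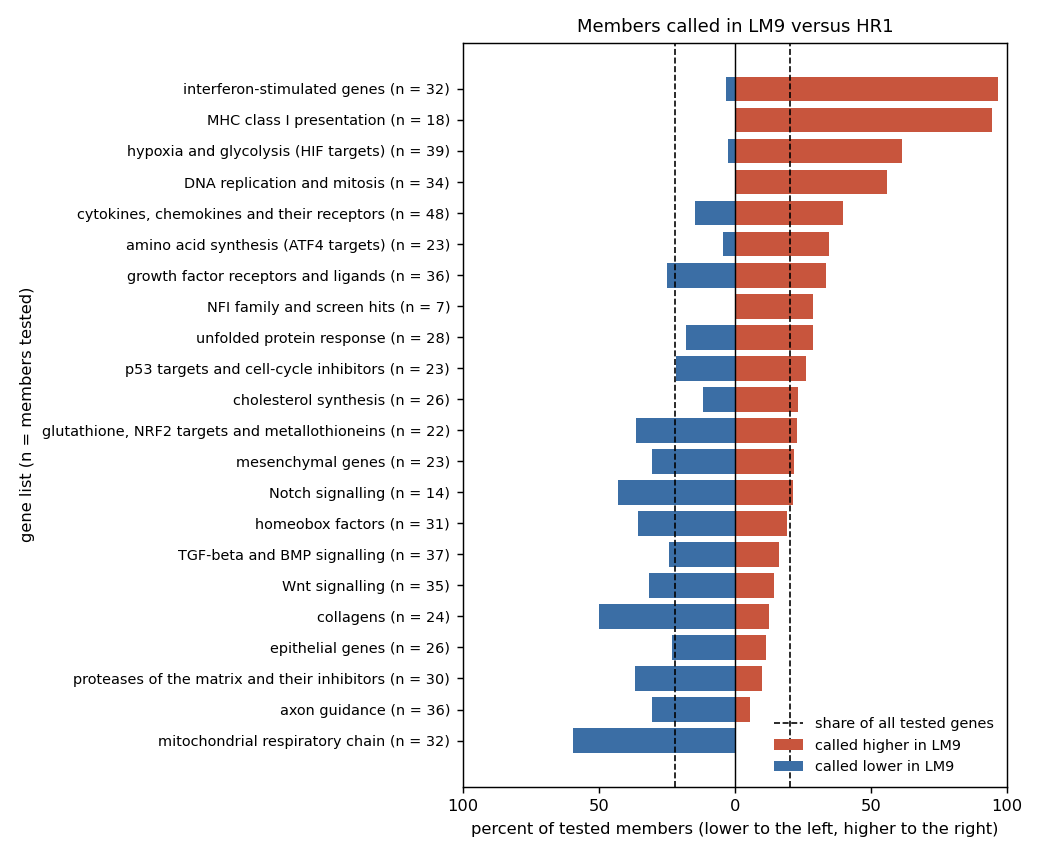
Share of tested members higher and lower in LM9 (percent, adjusted p under 0.05) for the 22 gene lists, with dashed lines at the shares over all genes, 20.4% and 21.9%. Interferon-stimulated and class I genes stand far above the dashed line for higher, the respiratory chain and collagens above the one for lower, and several signalling lists lie near both.

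Some changed genes lay next to each other. Runs of at least 4 neighbouring genes that changed in one direction at least 2-fold, with and without HR1_1, numbered 47 (27 higher and 20 lower) and held 234 genes, while 1696 higher and 1513 lower genes met the same limits. The longest runs were families of related genes. A run of 13 protocadherin genes of the Pcdhb cluster on chromosome 18 was lower (median -3.81), and 9 genes from Ifi209 to Ifi205 on chromosome 1 were higher (median 2.52). The 7 Oas genes on chromosome 5 (120730333 to 120921648) had a median of 3.59, the 6 Ifit genes on chromosome 19 one of 3.83, and the 6 genes from H2-Q2 to H2-Q10 one of 3.07. Lower runs included Hoxc9 to Smug1 on chromosome 15 (6 genes, median -4.76) and Dcun1d5 to Mmp27 on chromosome 9 (6 genes, median -6.53), which holds Mmp13, Mmp3 and Mmp10. Reads of such families may be shared between members.

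An interval on chromosome 4 held unrelated genes that rose together. From Mysm1 to Pgm1 (94942037 to 99987294), 14 of 17 tested genes were higher and 0 lower, with a median of 2.29. Over all genes 20.4% were higher and 21.9% lower. This interval was chosen after the values were seen, from the start of a run of higher genes to the end of a later run. The count and the median therefore follow in part from that choice. Nfia lies within the interval. Alg6, an enzyme of protein N-glycosylation, was at 11.2, 11.2 and 9.52 CPM in HR1 and at 108, 121 and 104 CPM in LM9 (3.38 ± 0.14, adjusted p = 3.35e-06). Usp1, a deubiquitinase of DNA repair, was at 25.9, 25.4 and 31.4 CPM against 153, 169 and 138 CPM (2.47 ± 0.16, adjusted p = 2.74e-05). Jun, a subunit of the AP-1 factor, was at 982, 640 and 507 CPM against 2126, 2758 and 1382 CPM (1.56 ± 0.32, adjusted p = 0.00572). All 3 were without overlap, and for Jun HR1_1 was the highest HR1 tumour. Of the 13 genes of the interval at a mean of 1 CPM or more, 11 were higher than in HR1 and 10 were higher than in LM1, where 22.0% of all genes differed in either direction. The number of copies of this interval in the DNA was not analysed here.

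HR1_1 was then set against HR1_2 and HR1_3 gene by gene. Over the 4294 genes that changed at least 2-fold between LM9 and HR1_2 with HR1_3, the log2 level of HR1_1 was placed on the way from their mean (0) to the LM9 mean (1). It lay under 0.25 for 54.6% of these genes, between 0.25 and 0.75 for 23.5% and above 0.75 for 21.8%. The first class includes 1703 genes on the far side from LM9, some of them far from the other HR1 tumours too, and the last includes 624 beyond LM9. Its largest excesses included Crym, S100b and Adamts8, and S100b was at 308 CPM against 0.383 and 0.592 CPM in the other two. S100b and Adamts8 turned from differences of -4.29 and -0.78 with HR1_1 to 3.44 and 6.96 without it. Its largest deficits included Cthrc1, a gene of matrix-producing cells, at 0.565 CPM against 144 and 121 CPM, and Spp1, which encodes osteopontin, at 6.58 CPM against 666 and 2099 CPM.

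The excess of Nfib in HR1_1 was shared with its neighbours on the chromosome. All 8 neighbouring genes from Nfib to Bnc2 (chromosome 4, 82290173 to 84676029) were higher in HR1_1 than in HR1_2 and HR1_3, by 7.93-fold (Frem1) to 63.5-fold (Nfib), computed on CPM + 0.1. This was the longest of 5 runs of at least 4 neighbours that differed at least 4-fold in HR1_1. Psip1, a chromatin reader of transcribed genes, stood at 1227 CPM in HR1_1, at 46.5 and 47.5 CPM in HR1_2 and HR1_3, and at 50.2, 52.2 and 47 CPM in LM9. Ttc39b was at 1077 CPM against 49.7 and 45.8 CPM, and LM9 stood at 52.4, 50.3 and 54.9 CPM. The next gene beyond the run, Cntln, was at 1.43 CPM in HR1_1 against 2.43 and 1.24 CPM. On the other side HR1_1 also differed outside the run, at 2.77-fold for Mpdz, 4.13-fold for Ptprd and 2.20-fold for Dmac1, and with a log2 ratio of -5.46 for Lurap1l.

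Relative to HR1_2 and HR1_3, Nfib was 24.2-fold higher in LM9, while Psip1, Ttc39b, Bnc2, Snapc3, Zdhhc21 and Ccdc171 were at 1.06-fold, 1.10-fold, 1.18-fold, 1.22-fold, 1.53-fold and 1.72-fold. None of these 6 passed the edgeR test without HR1_1, where the adjusted p of Zdhhc21 was 0.0526. Frem1, a basement membrane gene within the run, fell to 0.107, 0 and 0.0225 CPM in LM9. On the other side of Nfib, the scaffold gene Mpdz was at 35.6, 17.1 and 8.47 CPM in HR1 and at 485, 549 and 436 CPM in LM9 (4.59 ± 0.50, adjusted p = 0.000354, and 5.26 without HR1_1). The transposon's position, the DNA and the purity of HR1_1 were not analysed here.

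**Figure D5:**
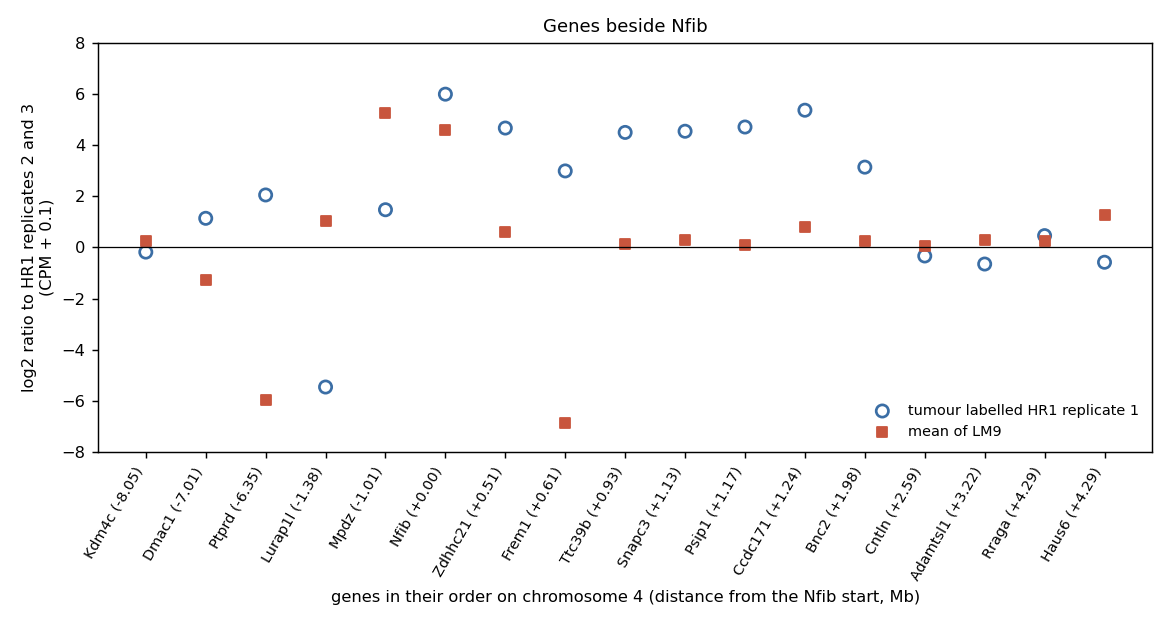
Log2 ratio to the mean of HR1_2 and HR1_3 for 17 genes around Nfib in chromosome order, for HR1_1 and for the mean of LM9. The HR1_1 points are raised from Nfib through Bnc2 and, by less than at any gene of that run, at Mpdz, Ptprd and Dmac1, and they are far below 0 at Lurap1l, whereas the LM9 points are raised at Nfib and Mpdz, to a smaller extent also at Lurap1l and Haus6, near 0 for Psip1 and Ttc39b and far below 0 for Frem1 and Ptprd.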

How the data were processed

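The deposited tables hold raw read counts per gene, 1 tumour per table: the authors aligned reads to mm10 with STAR and used QuasR's qCount for the number of read 5′ ends in the exons of a gene. Strand setting, versions and the filter that leaves 14108 genes are not given in the sources used here. Entrez IDs were matched to RefSeq symbols (14085 of 14108). Counts were fitted with edgeR 4.0.16 (R 4.3.3, TMM, filterByExpr, quasi-likelihood, robust) over all 9 tumours with 1 coefficient per group, at an adjusted p of 0.05, and again without HR1_1. The study used limma-voom, tried here (limma 3.58.1) with DESeq2 1.42.0 as alternatives. CPM used TMM-scaled library sizes. The scripts were tested on simulated data. Folds against a group at or under 3 counts per tumour used that floor, 0.0669 CPM in LM9 and 0.0815 CPM in HR1, which covers counting error only. No pair of tumours agreed within sampling noise. Total counts ranged from 32393958 to 46681945.

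The genes and lists were chosen with earlier results of these data known, and the chromosome 4 intervals after their values were seen. Named genes were the study's own (Nfib, Ero1l, Vegfa, Nfia, Foxp1, Lrch3, Sox6), the 10 largest increases and decreases at a mean of 5 CPM, called with and without HR1_1 and not overlapping, from each list the 2 largest changes in each direction at 1 CPM and the 2 most abundant members, the 5 genes most apart in HR1_1 in each direction, and the ends of the longest runs. Other genes named in the text (Slc2a1, Hk2, Car9, Ddit3, Phgdh, Tap1, Ifnb1, Tnf, Cxcl1, Ccl5, Btc, Hbegf, Egfr, Tgfa, Igf1, Mcm5, Mdm2, Zeb2, Mmp3, Col1a2, Hoxc6, Hey1, Nqo1, Alg6, Usp1, Jun and the neighbours of Nfib) were chosen for their role after their values were seen. LM1 tumours entered the fit and are otherwise described only for Nfib, Ero1l and the chromosome 4 interval from Mysm1 to Pgm1. Some genes that the rule names are not reported here.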

Additional observations from a re-analysis of the deposited data

How the results depend on the processing

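With TMM, 5958 genes were called. Other normalization, filters, DESeq2 and limma-voom gave 5468 to 6669 calls, only the 6 tumours gave 4247, and the share of higher calls was 48.3% with edgeR and 54.8% with limma-voom. A 2-fold minimum left 3606 calls, 1842 higher and 1764 lower. Leaving out 1 tumour gave 3768 to 7862 calls, 1948 to 3941 higher and 1820 to 3921 lower. The replicate numbers did not pair the tumours (correlations of deviations -0.061, -0.113 and 0.012), and the fit with the replicate block called 5078 genes, 2641 higher and 2437 lower. Of 161 named genes, 3 turned in sign and were then called, all without HR1 replicate 1: leaving out 1 tumour gave log2 differences from -0.92 to 0.77 for Notum, from -4.87 to 3.44 for S100b and from -1.36 to 6.96 for Adamts8. Signs also turned without a call: with limma-voom in 5 genes (S100b to 0.68, Adamts8 to 4.2, Ppef1 to 1.77, Erfe to 1.16 and Il1rl1 to 1.22), with the replicate block in Adamts8 (1.89), with library size only in 1 gene, and in 1 to 6 genes for each tumour left out. S100b was called lower without HR1 replicate 2 or 3 (edgeR adjusted p = 0.0446 and 0.0452). DESeq2 lost 0 of the calls for which it gave an adjusted p (152 genes), a filter of 1 CPM in 3 tumours lost no call among the 149 genes it kept, and a call was lost for 13 of the 161 with limma-voom, 13 of the 152 with a value when only the 6 tumours were fitted, 9 with the replicate block, 3, 4 and 2 without HR1 replicates 1, 2 and 3, and 17, 23 and 20 without LM9 replicates 1, 2 and 3. Each group is 1 line, so line and group cannot be told apart, and genes under 3 counts in a tumour were limited by depth.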
